A study of Homo sapiens with 8 samples.

Results

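The 2.5 Mb of chromosome 13 that start at 39000001 (hg38, band 13q14) and hold FOXO1 were described through every H3K27ac peak that fell in it. Members were chosen by position alone within a stretch picked for its difference between genotypes, so each value below that sets CREBBP-KO against WT is a description and carries no test. The 6 deposited peak lists held 960 peaks in this window of 588343 in all. Merging overlapping or touching peaks of the 6 lists gave 267 intervals here of 143733 genome-wide. The 6 genes followed are FOXO1, COG6, LHFPL6, MRPS31, SLC25A15 and ELF1, and a peak was given to a gene's promoter (within 1 kb of a protein-coding start), to its gene body, or to intergenic sequence.

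H3K27ac ChIP-seq had been carried out in HCEC-1CT, a non-cancerous human colonic epithelial line immortalized with CDK4 and hTERT, in 3 WT (parental) and 3 CREBBP-KO libraries. The study's design describes separately grown populations of each genotype. All cells carried inducible Cas9 and grew in medium with serum, EGF, insulin, transferrin, selenite and hydrocortisone. The study's methods name the CREBBP-KO cells used for ChIP monoclonal but also describe combining several clones for each target, so features of the chosen clones and effects of the genotype cannot be told apart here. The 2 input libraries were not analysed here, and as peak lists hold no reads, the DNA copy number of the window in the CREBBP-KO cells was not checked.

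CREBBP (CBP) and its paralogue EP300 are histone acetyltransferases that place acetyl groups on lysine 27 of histone H3. This mark, H3K27ac, is found at active promoters and enhancers, and several enhancers in a row can serve 1 gene over long distances. FOXO1 is a forkhead transcription factor of the insulin pathway: AKT phosphorylates it and keeps it out of the nucleus, and when AKT signalling falls it enters the nucleus and switches on genes of cell cycle arrest, stress defence and metabolism.

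The results turned on a run of elements on the 3′ side of FOXO1, and the hg38 sequence under their tallest CREBBP-KO summits is shown first. The 3 intergenic elements below had the largest differences between genotypes in the window and the highest rank among those with no WT peak. They are followed by the first element of the domain described below and the RefSeq promoter of FOXO1. Each summit window has 201 bases on the plus strand, and the capital letter marks the summit base.

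Intergenic element 1, chr13:40352162-40352362: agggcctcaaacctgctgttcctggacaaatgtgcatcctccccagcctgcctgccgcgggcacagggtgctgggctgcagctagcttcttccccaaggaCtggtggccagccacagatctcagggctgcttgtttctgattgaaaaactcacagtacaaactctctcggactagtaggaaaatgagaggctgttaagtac
Intergenic element 2, chr13:40476501-40476701: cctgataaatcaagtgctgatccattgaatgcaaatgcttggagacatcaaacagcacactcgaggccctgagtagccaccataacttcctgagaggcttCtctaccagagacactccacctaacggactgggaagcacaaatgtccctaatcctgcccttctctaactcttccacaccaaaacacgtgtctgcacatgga
Intergenic element 3, chr13:40329425-40329625: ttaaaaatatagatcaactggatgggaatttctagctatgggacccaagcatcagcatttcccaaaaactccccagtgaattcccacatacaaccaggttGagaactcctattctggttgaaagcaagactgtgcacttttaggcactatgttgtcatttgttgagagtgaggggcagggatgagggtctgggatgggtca
First element of the domain, chr13:39931530-39931730: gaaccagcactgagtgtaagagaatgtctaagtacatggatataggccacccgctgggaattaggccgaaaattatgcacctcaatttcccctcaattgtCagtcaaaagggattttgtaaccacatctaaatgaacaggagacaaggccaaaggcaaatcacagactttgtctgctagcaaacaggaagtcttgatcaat
FOXO1 promoter, minus strand, chr13:40666642-40666891: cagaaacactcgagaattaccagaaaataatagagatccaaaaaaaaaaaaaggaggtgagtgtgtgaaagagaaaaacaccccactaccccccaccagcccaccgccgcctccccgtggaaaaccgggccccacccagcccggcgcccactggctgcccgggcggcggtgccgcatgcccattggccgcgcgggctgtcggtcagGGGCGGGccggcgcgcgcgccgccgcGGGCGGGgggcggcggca

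The FOXO1 promoter sequence is the 250 bases before the start in RefSeq (GRCh38.p14), and its capitals mark both matches of the SP/KLF letters GGGCGGG, which occur in 31.5% of 35116 RefSeq promoter windows. GC content was 67.2% in this promoter and 54.7%, 48.8%, 44.8% and 42.8% in the 4 summit windows in the order printed.

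Fold is the peak caller's enrichment over local background, a linear ratio. As the lists differed in length, each peak was also given its percentile, the rank of its fold within its own list, with 0 for no peak. The WT lists held 86163 to 93567 peaks and the longer CREBBP-KO lists 99008 to 111697, with median folds of 4.32 to 4.46 and 4.02 to 4.10 respectively. They hold no reads, so depth is unknown. As a check of the cell type, promoters with a fold of at least 5 in all 3 libraries of a genotype were counted over marker lists. They numbered 2 of 8 for epithelial markers (CLDN7 and OCLN), 2 of 11 for colonic or intestinal markers (MUC2 among them), 7 of 7 for mesenchymal markers and 0 of 3 for blood markers. No list had a promoter peak for 3 of the 8 epithelial and 8 of the 11 colonic or intestinal markers, CDH1, KRT19, CDX1, CDX2, VIL1 and KRT20 among them. EPCAM, KRT8, KRT18 and GPA33 had a promoter peak that missed the fold of at least 5 in all 3 libraries of a genotype. These lists thus do not show most of the listed colonic or intestinal promoter marks. The CREBBP promoter kept its peak in every library, at WT percentiles of 94.8 to 98.6 and CREBBP-KO percentiles of 98.8 to 99.3, and a promoter mark does not check a coding knockout.

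The window held more peaks in CREBBP-KO than in WT. The WT libraries had 104, 112 and 103 peaks there and the CREBBP-KO libraries 238, 213 and 190. The peaks covered 175, 181 and 170 kb in WT and 317, 338 and 358 kb in CREBBP-KO. Neither measure overlapped between the genotypes. The window took 0.111% to 0.121% of the peaks of each WT list and 0.192% to 0.213% of each CREBBP-KO list, so its share rose beyond the general growth of the lists.

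An interval was used where all 3 libraries of at least 1 genotype had a peak in it, and 141 of the 267 met this. It was called higher where its lowest CREBBP-KO percentile lay above its highest WT percentile. By this rule 90 intervals were higher in CREBBP-KO, 8 were lower and 43 overlapped. Genome-wide, 31.9% of 71143 intervals were higher and 13.7% lower. The stretch was picked on this contrast, and nothing is read from the excess.

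Of the 90 higher intervals, 72 formed 1 block. The stretch of chromosome 13 with the highest score, counting each higher interval as plus 1 and each other interval as minus 1, ran from 39931335 to 40790967, a length of 859.6 kb. It is called the knockout domain here. It held 73 used intervals, of which 72 were higher, 0 lower and 1 overlapped. It began 735 kb on the low-coordinate side of the FOXO1 start, which is 624 kb past the 3′ end of the gene, and ended 124 kb on the other side. Of the 73 intervals, 66 had their summit on the low side of the FOXO1 start. The median gap between neighbours was 4.32 kb, and the widest, 86.6 kb, lay between 40683591 and 40770222, across the body of MRPS31.

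Coverage within the domain rose from 26.9, 30.9 and 29.4 kb in the WT libraries to 179, 190.1 and 199 kb in the CREBBP-KO libraries. That is 3.13% to 3.60% of its length against 20.8% to 23.2%. It held 21, 25 and 25 peaks in WT and 131, 112 and 101 in CREBBP-KO. In the rest of the window the covered length was 148, 150.5 and 141 kb in WT and 138, 148 and 158 kb in CREBBP-KO. Peaks there numbered 83, 87 and 78 in WT and 107, 101 and 89 in CREBBP-KO, without overlap. The covered length thus overlapped between genotypes outside the domain, while the number of peaks did not. The whole lists did not overlap in peak number either. The mean number in CREBBP-KO was 1.20 times that in WT outside the domain and 1.16 times over the whole lists. The separation outside the domain is therefore not read as a feature of the window. Inside the domain both were well separated, but the domain was drawn from intervals already called higher.

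**Figure D1:**
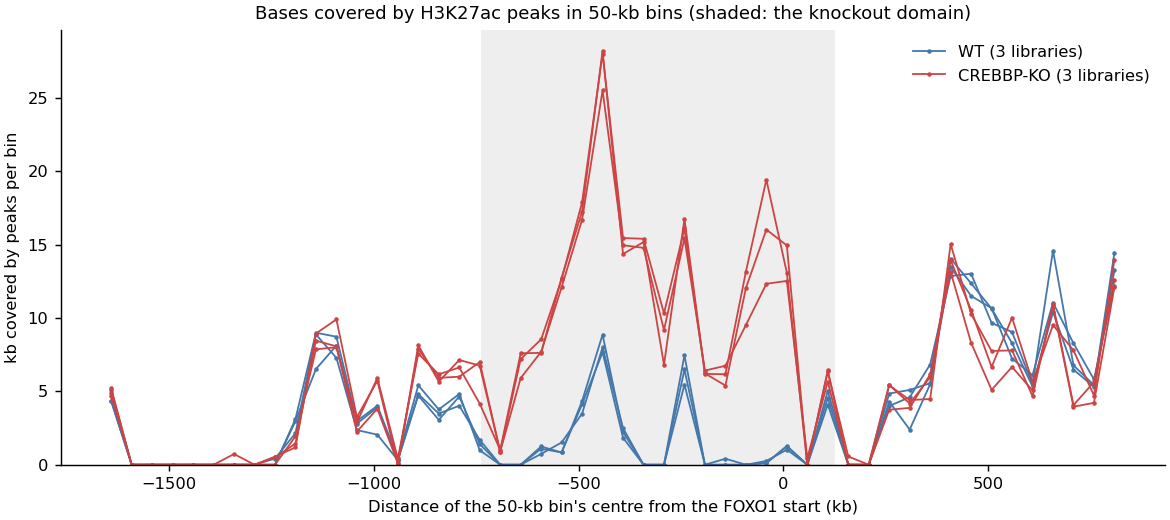
Kilobases covered by H3K27ac peaks in each 50-kb bin (y axis) against the distance of the bin's centre from the FOXO1 start in kb, 1 line for each of the 6 libraries. In the tallest bin, which starts at 40200001, WT libraries reach 7.67 to 8.87 kb and CREBBP-KO libraries 25.5 to 28.2 kb, and further from the domain the lines of both genotypes cross.

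The increase ran through consecutive bins of 50 kb. All 3 CREBBP-KO libraries covered more than all 3 WT libraries from the bin that starts at 39750001 to the one that starts at 40650001. The bin after these, which starts at 40700001, held 0 kb in 5 libraries and 0.449 kb in CREBBP-KO 1, and the next one, with the MRPS31 and SLC25A15 promoters, again separated. In the bin that starts at 40300001 the WT libraries had 0 kb and the CREBBP-KO libraries 14.8, 15.2 and 15.4 kb. WT covered more than CREBBP-KO in 3 bins, those that start at 39450001, 41100001 and 41150001.

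Most elements of the domain were seen in CREBBP-KO alone. Of the 73 intervals, 55 had no peak in any WT library and 13 had one in all 3, with the other 5 in between. Genome-wide, intervals shared by the 3 CREBBP-KO libraries but absent from WT made up 5.37% of those used. The 55 had a median CREBBP-KO percentile of 50.1, ranging from 17.7 to 91.5, and a median width of 1997 bases. The 13 with a WT peak had a median percentile of 50.8 in WT and 88.7 in CREBBP-KO, and a median width of 5517 bases. Elements with WT peaks were thus wider, and taller in CREBBP-KO, than those without. Width is that of the merged peaks of all lists, so a WT peak can itself widen an interval, and the part of merging in this contrast was not tested.

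The 3 CREBBP-KO libraries ranked the 73 intervals alike, with Pearson correlations of 0.784 to 0.820 across intervals of the same domain, which are not independent. The highest CREBBP-KO summits of an interval lay within 300 bases of each other in 36 of the 73. The increase came from more and taller elements: peaks of fold at least 5 numbered 5, 6 and 5 in WT and 38, 36 and 38 in CREBBP-KO. The median percentile of all peaks in the domain was 48.2, 47.8 and 37.98 in WT and 44.7, 47.5 and 47.0 in CREBBP-KO, which overlapped.

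**Figure D2:**
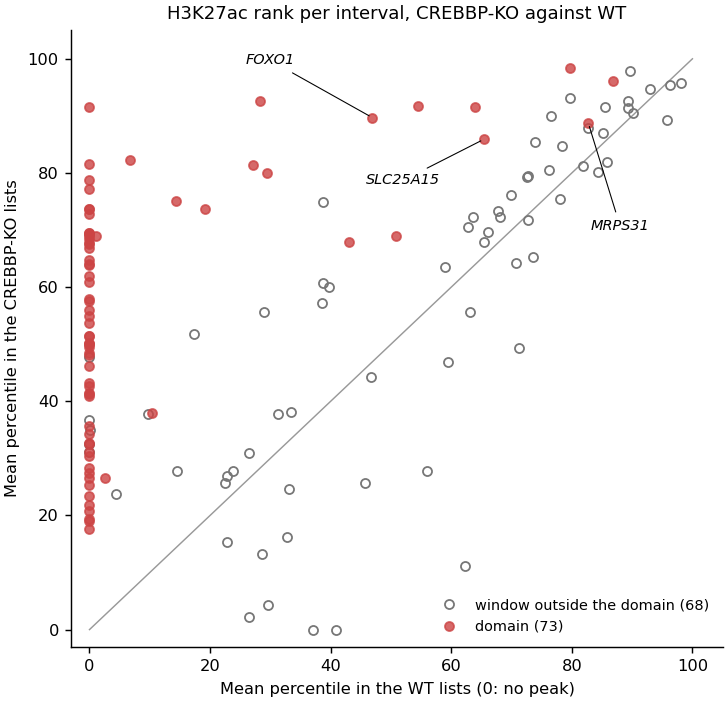
Mean percentile over 3 CREBBP-KO libraries (y axis) against the mean over 3 WT libraries (x axis) for each used interval, with filled points for the 73 of the domain and open points for the 68 elsewhere in the window. The line marks equal values. Domain intervals lie above the line, 55 of them at 0 in WT, while the others scatter about it, with a median difference of 4.05 percentile points against 50.0 in the domain.

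Intervals with a fold of at least 5 in all 3 libraries of one genotype and no peak in the other are called restricted. The domain held 13 of the 104 CREBBP-KO-restricted intervals of the genome, and chromosome 13 had 14 in all. The window held 0 WT-restricted intervals of 58. Over all 35542 intervals that passed this fold filter, 0.293% were CREBBP-KO-restricted and 0.163% WT-restricted. Of the 13, 11 were intergenic and 2 lay in the FOXO1 gene body, from 708 kb to 3.801 kb on the low side of the start. Their folds ran from 5.05 to 15.9 over the 3 libraries.

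The tallest of them was intergenic element 1, printed above, an interval of 6368 bases that lay 314 kb on the low side of the FOXO1 start. It had no WT peak and folds of 15.9, 11.4 and 15.9 in CREBBP-KO, at percentiles of 94.6, 87.1 and 92.9. Its summits in the 3 libraries fell within 143 bases. Intergenic element 2, 190.0 kb on the low side, had no WT peak and CREBBP-KO folds of 7.78, 9.93 and 9.38. Intergenic element 3, 337 kb on the low side, had no WT peak and CREBBP-KO folds of 7.54, 9.88 and 7.22. The fourth was an interval from 40250879 to 40255304 with CREBBP-KO folds of 7.57, 7.09 and 8.31. All 4 were absent from every WT list and stood at percentiles of 74.1 or more in every CREBBP-KO list.

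The tallest element of the whole domain was present in both genotypes. It spanned 23102 bases from 40216092 to 40239193, 444 kb on the low side of the FOXO1 start. Its folds were 10.0, 9.38 and 7.22 in WT and 23.3, 22.9 and 25.4 in CREBBP-KO. The interval from 40401027 to 40411038 followed, with folds of 11.0, 11.8 and 10.5 in WT and 15.9, 21.6 and 20.1 in CREBBP-KO. The interval from 40056916 to 40062432 had folds of 4.21, 2.98 and 3.05 in WT and 13.9, 17.6 and 13.9 in CREBBP-KO. In these 3 the genotypes did not overlap.

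Of the 73 intervals, 57 were intergenic with respect to protein-coding genes, and 41 of these had their summit within the span of LINC00598, a long noncoding RNA gene on the minus strand from 40079106 to 40535807. No summit fell in an exon of its canonical transcript (GENCODE release 44). A further noncoding gene, LINC00332, held 4 summits, 1 of them in an exon. Whether these transcripts changed was not measured by this assay.

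FOXO1 itself (ENSG00000150907.10, chr13:40555667-40666641, minus strand, 111 kb) had the largest promoter difference of the 6 genes. Its promoter stood at fold 3.42, 4.54 and 4.90 in WT and 11.7, 14.2 and 12.7 in CREBBP-KO. In percentiles these were 32.4, 52.5 and 55.7 against 89.1, 91.5 and 88.5. The promoter was thus a middling peak of each WT list and a tall one of each CREBBP-KO list, with a difference of 42.8 percentile points. Of 12693 protein-coding promoters with a peak in all 3 libraries of a genotype, 226 had a difference at least as large. Among these promoters 45.9% were higher in CREBBP-KO without overlap and 7.71% lower.

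The FOXO1 gene body had 13 used intervals, all 13 higher in CREBBP-KO and 12 of them without a WT peak. The WT libraries had 1 peak each in the gene body, of fold 2.37, 2.90 and 2.39, and the CREBBP-KO libraries 25, 27 and 20. All 13 summits lay in intron 1, which takes 104.7 kb of the gene, and 0 in an exon. The 12 without a WT peak had CREBBP-KO folds between 2.70 and 7.82, with a median of 4.38. The tallest element of the gene body lay 16.6 kb into the gene and covered 7275 bases. The single WT peak of each library fell in this element, whose percentiles were 2.27, 15.8 and 2.06 in WT and 81.4, 82.8 and 82.8 in CREBBP-KO.

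The other promoters differed less. SLC25A15, the mitochondrial ornithine carrier of the urea cycle, stood at percentiles of 53.6, 67.4 and 75.3 in WT and 88.2, 83.2 and 86.3 in CREBBP-KO. Its promoter interval was the last of the domain. MRPS31, a protein of the small subunit of the mitochondrial ribosome, stood at 87.3, 79.4 and 81.6 in WT and 88.8, 89.7 and 87.7 in CREBBP-KO. Both separated between genotypes, MRPS31 by the gap between 87.3 and 87.7. Neither gene had a used interval in its body.

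LHFPL6, a tetraspan membrane protein gene outside the domain, stood at 70.9, 75.6 and 75.2 in WT and 88.4, 82.2 and 85.8 in CREBBP-KO, without overlap. Its tallest body interval, from 39561694 to 39568169, went the other way, with percentiles of 98.7, 98.8 and 96.9 in WT and 95.1, 95.7 and 96.3 in CREBBP-KO. COG6, a subunit of the Golgi complex for retrograde transport, overlapped at its promoter with 77.0, 74.8 and 83.1 in WT and 89.3, 82.7 and 82.4 in CREBBP-KO. Its tallest body interval, from 39772775 to 39780350, was higher in CREBBP-KO by percentile, with 86.6, 82.6 and 60.4 in WT and 86.7, 96.1 and 86.9 in CREBBP-KO. The separation rests on the gap between 86.6 and 86.7. In folds the genotypes overlapped, at 11.0, 9.47 and 5.39 in WT and 10.5, 19.0 and 11.9 in CREBBP-KO.

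ELF1, an ETS family transcription factor gene on the high side of the domain, shared its tallest promoter peak with WBP4. The percentiles were 97.5, 94.2 and 97.2 in WT and 94.3, 95.0 and 96.7 in CREBBP-KO, which overlapped. Of 7 used intervals in the ELF1 body, 0 were higher in CREBBP-KO, 2 were lower and 5 overlapped. Of the ELF1 promoter intervals, 3 of 3 overlapped.

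The ends of the domain differed in sharpness. The first interval, printed above, was weak, with folds of 3.96, 2.66 and 2.96 in CREBBP-KO and 2.70 in a single WT library. The next interval outward, 14.4 kb away from 39912918 to 39916958, had percentiles of 76.7, 59.6 and 54.7 in WT and 74.4, 70.6 and 71.99 in CREBBP-KO and overlapped. Beyond the SLC25A15 promoter no used interval followed for 118.7 kb, and the next one, from 40909640 to 40912677, had percentiles of 67.7, 68.8 and 52.8 in WT and 53.9, 56.7 and 56.5 in CREBBP-KO. Between them lay a single peak of 1 library, CREBBP-KO 2, of fold 2.82. The high end therefore fell in a stretch without used intervals, and the low end among peaks of both genotypes.

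The ends also moved with the way the peaks were treated. Over the 15 ways tried, the start ranged from 39601209 to 39957797 and the end from 40683591 to 40790967. The core is the stretch from the latest start to the earliest end, 39957797 to 40683591, 725.8 kb, and lies in all 15 by this definition. In it 67 of 67 used intervals were higher in CREBBP-KO, but the domain was drawn on that call, so this tests nothing. The core takes in the whole of FOXO1 and LINC00598 and leaves out the MRPS31 and SLC25A15 promoters.

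Outside the domain the window held 68 used intervals, 18 higher in CREBBP-KO, 8 lower and 42 overlapping. On the low side these were 9, 1 and 15, and on the high side 9, 7 and 27. The 3 largest differences in favour of WT were in gene bodies of the high side. The interval from 41370149 to 41372061 in NAA16, an N-terminal acetyltransferase subunit gene, had percentiles of 58.2, 56.4 and 72.4 in WT and 33.2 in a single CREBBP-KO library. A second NAA16 interval, from 41364867 to 41365900, and an ELF1 interval, from 40987561 to 40988745, had peaks in all 3 WT libraries and in 0 CREBBP-KO libraries. The NAA16 promoter itself was higher in CREBBP-KO, at 97.6, 97.8 and 98.1 against 88.7, 91.1 and 89.4. In the adjoining 1 Mb on the low side 1 of 9 used intervals was higher, and in that on the high side 13 of 47.

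A fit was made over intervals with a peak in all 6 libraries and a fold of at least 5 in all 3 libraries of a genotype. It leaves out the elements without a WT peak, and an interval weak in WT could enter through CREBBP-KO alone. Of 34864 intervals tested with limma on normal scores of ranks, 18.6% were higher and 18.7% lower in CREBBP-KO at a Benjamini-Hochberg adjusted p under 0.05. In the window 47 were tested, 15 called higher and 4 lower, and without the fold filter 60, 13 and 4. In the domain 13 were tested, 10 called higher and 0 lower, with shifts of 0.27 to 3.10 normal-score units. As the rule used this contrast, these counts describe the window and test nothing.

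Sequence was a readout that the rule had not used. Letters of 9 motifs were searched on both strands within 100 bases either side of the tallest CREBBP-KO summit of each interval. AP-1 (TGANTCA) was found in 9.59% of the 73 domain windows and 6.89% of 69569 windows genome-wide. TEAD (CATTCC) was found in 17.8% (95% Wilson interval 10.7% to 28.1%) against 10.8%. The forkhead letters (TGTTTAC) that FOXO proteins can bind were found in 2.74% against 3.28%. The genome-wide share fell inside the domain's interval for AP-1, TEAD and forkhead. For TEAD it did not within 250 bases of the summits, where the shares were 38.4% (28.1% to 49.8%) and 26.6%. Among summits more than 1 kb from a protein-coding start it did, at 38.6% of 70 (28% to 50.3%) against 28.4%.

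The letters AGATAA, bound by GATA factors, stood at 11.0% against 10.5% and RUNX (TGTGGTT) at 4.11% against 3.64%. SP/KLF (GGGCGGG) stood at 1.37% against 5.70%, and CRE (TGACGTCA), ETS (CCGGAAG) and CTCF (AGGGGGCG) at 0 of 73 (Wilson upper bound 5.00%) against 0.0733%, 1.42% and 1.05%. Away from promoters by the same 1 kb, all 4 stood at 0 of 70 (upper bound 5.20%). The genome-wide shares there were 1.98% for SP/KLF and 0.0523%, 0.754% and 0.331% for CRE, ETS and CTCF. The 4 summit windows printed above held 0 matches to AP-1, TEAD or forkhead, and the first element of the domain held 1 to RUNX. The median GC content was 46.3% in both sets. A match is a description of letters and not a bound site.

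Outside the window, genes of the same pathway were read from a list of 46 inputs, paralogues and targets of FOXO1. Promoters of 36 could be tested in the same fit, of which 10 rose and 1 fell in CREBBP-KO. Among all 11708 protein-coding promoters tested the shares were 26.7% higher and 8.40% lower, so the list stood close to promoters in general. Of 15 inputs tested 2 rose, IRS2 among them. Of the paralogues, FOXO3 and FOXO4 did not pass the threshold and FOXO6 could not be tested. Of 19 targets tested 8 rose and 1 fell. Without the fold filter 39 of the list could be tested, of which 9 rose and 1 fell.

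GADD45A, a stress and DNA damage response gene, stood at 96.3, 98.2 and 94.8 in WT and 99.8, 99.9 and 99.8 in CREBBP-KO (shift 1.23 ± 0.18 SE, adjusted p = 4.13e-05, limma). SESN1, a sestrin of the oxidative stress response, stood at 90.3, 89.98 and 93.1 in WT and 98.6, 98.8 and 99.5 in CREBBP-KO (shift 1.14 ± 0.17 SE, adjusted p = 4.64e-05, limma). At both promoters every CREBBP-KO library lay above every WT library.

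INSIG2, a regulator of sterol synthesis, stood at 39.7, 48.9 and 57.1 in WT and 82.0, 73.9 and 72.7 in CREBBP-KO (adjusted p = 0.00286, limma). INSIG2 and FBXO32 passed the fold filter through CREBBP-KO alone, and without this filter their adjusted p were 0.00851 and 0.0091 (limma). CDKN1B, the cell cycle inhibitor p27, rose as well (adjusted p = 0.00412, limma), as did FBXO32, a ubiquitin ligase subunit known from muscle atrophy (adjusted p = 0.00345, limma), and KLF2, a zinc finger factor (adjusted p = 0.0354, limma). BCL6, a transcriptional repressor, fell in rank from 99.9, 99.8 and 99.9 in WT to 99.7, 98.6 and 99.1 in CREBBP-KO (adjusted p = 0.0089, limma). Its folds overlapped, at 33.0, 28.1 and 32.4 in WT and 30.7, 24.8 and 27.7 in CREBBP-KO. GADD45A, SESN1, INSIG2 and CDKN1B passed under all 10 other settings tried, while IRS2 passed under 1 of 10, KLF2 under 4, ATG12 and BBC3 under 5, BCL6 under 8 and FBXO32 under 9.

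By the root mean square difference of percentiles over the 6 libraries, the promoters most like that of FOXO1 among 12133 outside the window were LGALSL on chromosome 2 (6.01 points), CD302 on chromosome 2 (6.41 points) and UNC119 on chromosome 17 (6.69 points). LGALSL, for example, stood at 46.0, 51.7 and 54.3 in WT and 91.2, 88.1 and 92.3 in CREBBP-KO.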

How the data were processed

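Narrow peak lists of H3K27ac ChIP-seq from 3 WT and 3 CREBBP-KO libraries, grouped by the genotype in the labels, were analysed. Per the study's methods, the authors aligned to hg38 in an nf-core workflow for ChIP-seq and called narrow peaks with MACS2, and the submitters' notes name BWA. Whether the lists came from before or after the downsampling of reads, and which input was the control, is not given in the sources used here. The deposited fold is a linear ratio over local background, and the deposited significance of a peak is its -log10 p and -log10 q. The smallest deposited -log10 q was 1.3. No peak list holds counts, so depth is unknown and limits the precision in a way that could not be computed.

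Peaks were merged across lists and folds ranked within lists, with genes from GENCODE release 44. The furthest peak lay within the hg38 length on each chromosome. Rank shifts were fitted with limma 3.58.1 (eBayes with trend) to normal scores over intervals with a fold of at least 5 in all 3 libraries of a genotype and a peak in all 6, and p-values were Benjamini-Hochberg adjusted over all of them. The labels give no batch. The code was tested on simulated data. P-values measure the spread between these cultures. Software was Python 3.11.15, pandas 2.3.3, scipy 1.17.1, bedtools 2.31.1 and R 4.3.3.

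The window, the genes and the lists were chosen with earlier results of these data known. Named were the 6 genes, CREBBP, the 5 largest differences, the 3 highest restricted intervals, the ends of the domain and their neighbours, the 3 largest differences for WT, the tallest body interval of each gene, listed genes past the threshold (at most 8 by size) and the 3 promoters most like that of FOXO1. The tallest domain elements present in both genotypes, the NAA16 promoter and 3 listed genes (IRS2, ATG12 and BBC3) were named after their values were seen. A listed gene, a marker gene and a summit sequence that these rules select are not reported here. Alternatives covered the significance threshold, list length, ranking, matching of peaks, replicate rule, fold filter, domain rule, promoter distance and model, with each library omitted once.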

Additional observations from a re-analysis of the deposited data

How the results depend on the processing

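The CREBBP-KO excess of peaks in the window, 107 on average, was 52 with peaks of -log10 q of at least 5 alone, 67.3 with lists cut to the same length and 31 with peaks of fold at least 5, and the excess in covered length, 162 kb, was 133, 144 and 104 kb. The 90 higher intervals became 57 at the stricter q and 34 at fold 5. The 13 restricted intervals became 8 with summit windows, 43 at a fold of 3 and 1 at a fold of 10. The domain measured 833 kb at the stricter q and at fold 5, 741 kb with lists of the same length, 1082 kb when ranked by -log10 p, 1013 kb with summit windows and 841 kb when stopped at the first interval that overlapped. Without 1 library it measured 859.6 to 1018 kb, and it was longer without WT replicate 1, CREBBP-KO replicate 2 or CREBBP-KO replicate 3. The FOXO1 promoter difference became 62.1 points at the stricter q, those of LHFPL6 and SLC25A15 16.0 and 29.7, and with -log10 p 5.46 and 11.3. The pathway list's 10 higher and 1 lower became 5 and 0 with -log10 p. Without 1 library they ranged from 6 to 13 and from 0 to 1, the lowest of both without CREBBP-KO replicate 2. None of these summary values changed direction under the alternatives tried, though the shift of IRS2, 0.42, ranged from -0.06 to 0.47. The FOXO1 promoter difference, 42.8 points, was 35.6 to 47.2 without 1 library. A further 85 values without 1 library and 57 under other settings stayed within the replicate spread of the main value, within 1.5 times it for counts or within the Wilson interval for motif shares, and where a value moved the cause was not tested.

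Motif shares followed the window. Within 50 and 250 bases of domain summits AP-1 was 1.37% and 27.4% (genome-wide 3.23% and 24.3%), TEAD 4.11% and 38.4% (5.43% and 26.6%), GATA 4.11% and 26.0% (5.03% and 25.7%) and RUNX 1.37% and 12.3% (1.75% and 9.83%), and forkhead within 250 bases was 9.59% (8.70%). Within 50 bases the domain shares of AP-1 and RUNX rest on 1 of 73 windows each and those of TEAD and GATA on 3 each. Every genome-wide share here lay inside the domain's Wilson interval except that of TEAD within 250 bases. Away from promoters that TEAD share, 28.4%, lay inside the interval of 28% to 50.3%. No direction is read from any of these motifs.

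Replicate numbers did not pair the libraries. Same-numbered WT and CREBBP-KO libraries had deviations that correlated at 0.0108, 0.0144 and 0.0284 over 34864 intervals. With the replicate number as a block, 16 intervals of the window were higher and 4 lower, and 6514 and 6566 genome-wide. The pathway list kept within 1.5 times its counts under the block.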

Other observations

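The same scoring was run on every other chromosome. The next highest score was 39, on chromosome 7 from 47314582 to 47971750, where 47 of 55 used intervals were higher in CREBBP-KO, against 71 for the domain around FOXO1. Chromosome 9 followed with a score of 30, over a stretch in which 76 of 122 used intervals were higher. In the domain around FOXO1, 6 intervals had a mean CREBBP-KO percentile of at least 90 and 0 had such a mean in WT.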
